A study of Mus musculus with 12 samples.

Results

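The sestrins and the FOXO genes, with 4 other genes that restrain growth signalling or are known FOXO targets, were followed in mouse acute myeloid leukemia (AML) cells treated with CCS1477, an inhibitor of the bromodomain of the acetyltransferases p300 and CBP. The 10 genes are Sesn1, Sesn2, Sesn3, Foxo1, Foxo3, Foxo4, Ddit4, Pik3ip1, Txnip and Irs2, and all 10 were found among the 15651 genes of the expression table. The set was chosen by the log2 change of Sesn3 with CCS1477, among the largest rises of the table, and the other 9 genes belong to its family or to the same signalling route. The change of Sesn3 with CCS1477 is therefore a description with no test. Calls for the other 9 genes come from that same contrast, so they are given as the fit made them and nothing is read from their number. All 10 genes passed the filter on low values in every comparison.

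The cells were c-Kit-enriched splenocytes from 6 moribund mice, 3 of the genotype Dnmt3a fl/fl, Flt3 ITD/ITD, Mx1Cre (D/F AML) and 3 of the genotype Tet2 fl/fl, Flt3 ITD/ITD, Mx1Cre (T/F AML). Both genotypes therefore carry the Flt3 internal tandem duplication on both alleles and the Mx1 promoter driving Cre, which acted without an inducer in this colony, so that either or both floxed alleles may be deleted. The cells of each mouse were divided between vehicle (DMSO) and CCS1477 for 6 h in medium with SCF, IL6 and IL3, at 4 µM CCS1477 for D/F AML and at 2 µM for T/F AML, which gave 12 libraries. Genotype and dose changed together, so their parts in any difference between D/F and T/F AML cannot be told apart. The ages of these mice are not given in the sources used here. The paper reports a shorter median survival of T/F than of D/F mice. Age at collection may therefore also have differed between the genotypes, and its part was not tested. Values are TPM, transcript abundances scaled for transcript length and library size, so levels can be compared between genes. A TPM value is a share of the RNA in a library, and in bulk samples fewer cells of a type and less RNA per cell cannot be told apart.

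As background, growth factors and insulin act through phosphoinositide 3-kinase (PI3K) and AKT, and AKT phosphorylates FOXO transcription factors and holds them outside the nucleus. When this signal is low, FOXO proteins enter the nucleus and can drive genes of cell cycle arrest, stress resistance and metabolism. Sestrins are stress-induced proteins that restrain mTORC1, the kinase complex that couples amino acids and growth factors to protein synthesis, and Sesn3 is a known FOXO target. In myeloid leukemia, an activated FLT3 receptor feeds the same PI3K and AKT route.

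The libraries expressed markers of the labelled cells and also markers of neutrophils. Kit lay between 22.8 and 149 TPM and Mpo, the myeloperoxidase of myeloid progenitors, between 277 and 3673 TPM, whereas Ptprc (CD45), which leukocytes carry, was at only 0.83 to 3.11 TPM. The summed level of 8 progenitor markers was 2193 to 6386 TPM in DMSO and 620 to 2780 TPM in CCS1477. Mpo and Elane (202 to 2480 TPM) reached the highest levels of the 8. The lowest values of Flt3, Cd33 and Csf1r were 3.60, 4.18 and 2.19 TPM. The neutrophil sum, 1753 to 9991 TPM over all libraries, was above the progenitor sum in every library. Of 8 marker lists, 7 (progenitor, B cell, T cell, erythroid, megakaryocyte, macrophage, and mast cell or basophil) were lower with CCS1477 in all 6 mice by their summed level, and the neutrophil sum was lower in 4 of 6. Of all single genes tested, 24.2% were lower in all 6 mice. Some of these falls were small, such as the T cell sum in T/F replicate 3 (24.9 to 24.6 TPM) and the erythroid sum in D/F replicate 3 (26.5 to 25.8 TPM). Among the few B cell and T cell markers analysed here, 3 of 8 and 5 of 8, sums stayed between 5.54 and 25.6 TPM and between 17.6 and 50.9 TPM. The megakaryocyte sum was higher, at 32.5 to 242 TPM, with Ppbp (platelet) at 0.00 to 12.7 TPM and Itga2b at 13.1 to 121 TPM. The cells of D/F replicate 2 stood apart: in DMSO their progenitor sum was 2330 TPM against 6386 and 4428 TPM in the other D/F mice, their neutrophil sum was 2862 TPM against 9991 and 6687 TPM, and their T cell sum was 50.9 TPM against 26.4 and 25.4 TPM. The part of these marker levels in the results that follow was not tested. Tet2 was lower in the T/F mice than in D/F AML within each treatment (30.0 to 35.8 against 38.3 to 43.4 TPM in DMSO), and Dnmt3a overlapped between the genotypes (29.3 to 55.7 TPM in the D/F mice and 39.9 to 53.9 TPM in the T/F mice, with DMSO). Gene-level values also take in undeleted exons, so neither checks the deletion.

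The promoters of the 3 genes with the largest rises are shown because these genes moved together with CCS1477. Each run is the strand of the gene, 5′ to 3′, and covers the 250 bases before the start that RefSeq gives on GRCm38.p6, an assembly of the mm10 coordinates. Capitals mark matches, on either strand, to GTAAACA (the core bound by FOXO proteins) or GGGCGG (the GC box bound by Sp1). The windows are chr9:14276051-14276300 (plus strand) for Sesn3, chr3:52268087-52268336 (plus strand) for Foxo1 and chr3:96557707-96557956 (plus strand) for Txnip.
Sesn3: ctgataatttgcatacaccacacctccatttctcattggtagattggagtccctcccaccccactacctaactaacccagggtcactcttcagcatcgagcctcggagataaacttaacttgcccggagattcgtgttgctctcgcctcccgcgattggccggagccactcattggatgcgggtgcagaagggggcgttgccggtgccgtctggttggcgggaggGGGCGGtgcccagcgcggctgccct
Foxo1: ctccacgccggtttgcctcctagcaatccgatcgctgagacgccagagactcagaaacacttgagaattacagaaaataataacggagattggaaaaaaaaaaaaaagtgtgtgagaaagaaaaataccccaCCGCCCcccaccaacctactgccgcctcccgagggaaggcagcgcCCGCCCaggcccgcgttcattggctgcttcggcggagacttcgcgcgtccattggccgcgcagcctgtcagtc
Txnip: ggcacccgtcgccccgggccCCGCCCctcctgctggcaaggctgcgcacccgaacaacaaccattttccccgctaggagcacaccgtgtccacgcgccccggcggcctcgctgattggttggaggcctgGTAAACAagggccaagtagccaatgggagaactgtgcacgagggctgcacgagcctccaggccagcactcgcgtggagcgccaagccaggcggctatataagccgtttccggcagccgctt
The Txnip window held 1 FOXO core, at bases -121 to -115, which 3.17% of all 32851 promoter windows of this length held. The Sesn3 window held 1 GC box and no FOXO core, and the Foxo1 window 2 GC boxes and no FOXO core. The Sesn3 window lies inside the gene as GENCODE release M21 annotates it (chromosome 9, 14275067 to 14333101, plus strand), outside the annotated exons, so the start that RefSeq uses is downstream of another annotated start. The Txnip window ends just before the annotated gene (chromosome 3, 96557957 to 96561883), and Foxo1 runs from 52268336 to 52353221 on chromosome 3. RefSeq windows were matched for 9 of the 10 genes, with 2 windows for Sesn1. None of the 10 windows held TGATGNAA, an ATF4-type core (3.45% of all promoters), only the Irs2 window held the E-box CACGTG (6.02%), and windows of 8 of the 9 genes, all but Pik3ip1, held a GC box (32.7%), where matches that overlap were counted separately. All 250 bases of the Pik3ip1 window, and of 1 of the 2 Sesn1 windows, lie in annotated exons of the gene itself. A match describes the letters of the window and is not a binding site.

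In DMSO, Txnip had the highest mean level of the 10 genes in both genotypes (119 ± 56.7 TPM in the D/F mice and 74.1 ± 15.0 TPM in the T/F mice, SD, n = 3) and Foxo1 the lowest (3.97 ± 1.75 and 4.52 ± 0.95 TPM). Ddit4, Foxo3 and Pik3ip1 followed Txnip, at means of 27.4 to 46.3 TPM, and these 3 genes overlapped with each other. Sesn1 and Sesn2 overlapped with each other, at means between 16.2 and 20.1 TPM, and Sesn3 overlapped with Foxo1 at the bottom of the order. With CCS1477, Txnip stood clear of the other 9 genes in both genotypes, and Sesn3 moved from the ninth to the fourth place by mean level in both genotypes. Of its neighbours in that order, Sesn3 overlapped with Foxo3 above and Sesn1 below in the D/F mice. In the T/F mice it overlapped with Sesn2 below but not with Ddit4 above. The plot of each library shows these levels for the 6 mice.

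**Figure D1:**
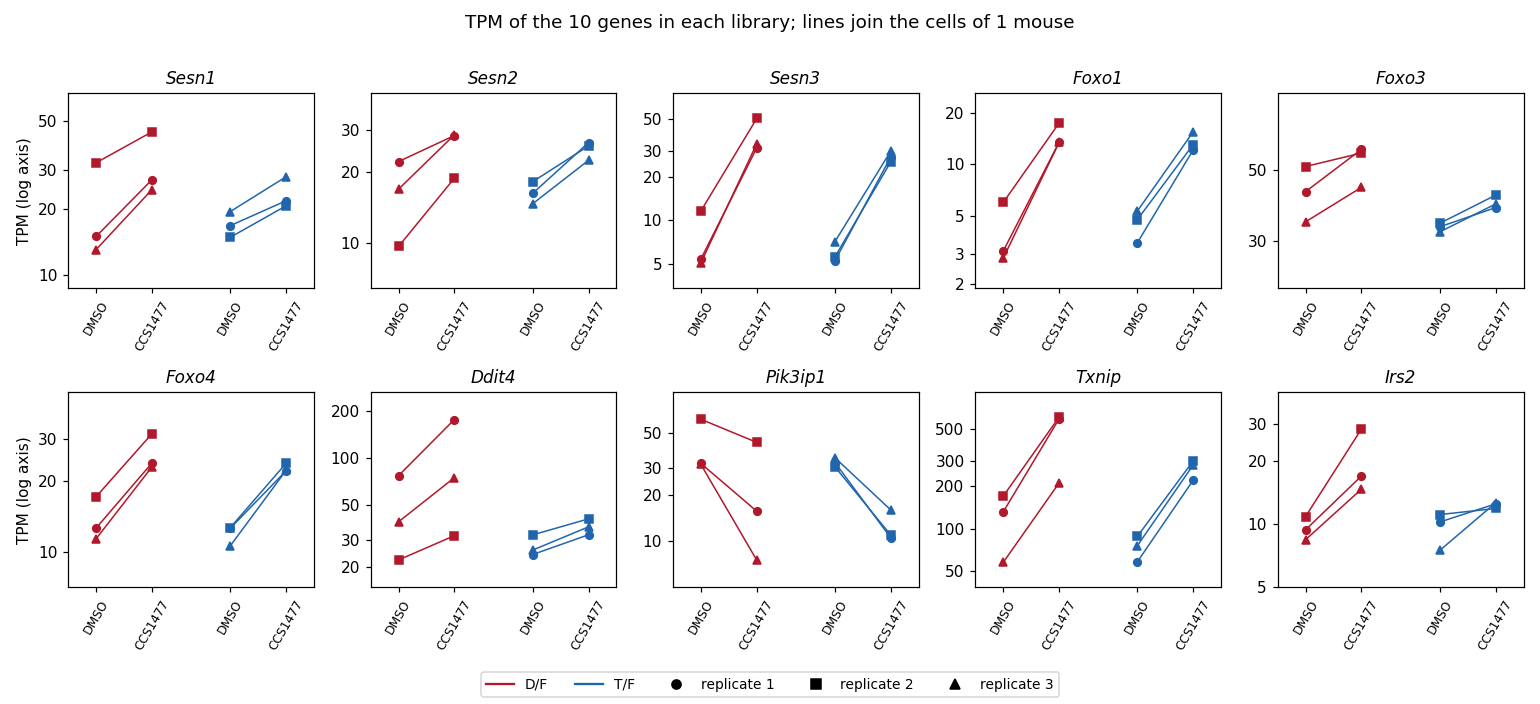
Level of each of the 10 genes in TPM (vertical log axes, 1 panel a gene) in DMSO and CCS1477 for D/F (red) and T/F (blue) AML; a point is 1 library, its shape the replicate number, and a line joins the cells of 1 mouse. In 9 panels all 6 lines go up, with Sesn3 from 5.10 to 11.6 TPM up to 25.5 to 50.7 TPM, and in the Pik3ip1 panel all 6 go down.

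Sesn3 went from the lowest mean level of the 3 sestrins in DMSO to the highest in CCS1477, in both genotypes. In D/F AML it was at 5.41, 11.6 and 5.10 TPM in DMSO and at 31.7, 50.7 and 33.9 TPM in CCS1477 (replicates 1, 2 and 3). The T/F mice had 5.27, 5.62 and 7.15 TPM in DMSO and 27.5, 25.5 and 30.2 TPM in CCS1477. Every treated library lay above every DMSO library, and D/F replicate 2 was the highest under either treatment. The ratio of CCS1477 to DMSO within a mouse was 5.63 ± 1.17 in D/F (SD, n = 3 mice) and 4.66 ± 0.50 in the T/F mice. On the log2(TPM + 1) scale the change was 2.30 (SE 0.34) in the D/F mice and 2.04 (SE 0.12) in the T/F mice, ranked 15 of 15501 and 11 of 15256 genes tested from the largest rise. These ranks are what chose the gene.

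Sesn2, whose protein binds leucine and holds mTORC1 in check when it is scarce, was higher with CCS1477 in all 6 mice by a smaller factor. It went from 22.1, 9.71 and 16.9 TPM to 28.5, 18.8 and 28.7 TPM in the D/F mice and from 16.2, 18.2 and 14.7 TPM to 26.6, 25.7 and 22.4 TPM in the T/F mice. The D/F groups overlapped through the low level of replicate 2, and the T/F groups did not. In T/F AML Sesn2 rose (log2 change 0.58, SE 0.11, adjusted p = 0.0075, limma), and without T/F replicate 1 the adjusted p was 0.0774. In D/F AML the log2 change was 0.66 (SE 0.32, adjusted p = 0.231). In a fit with the mouse as a block, so that each mouse is its own control, the adjusted p was 0.0271, and it lay between 0.0504 and 0.132 without any 1 of the D/F replicates.

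Sesn1, like Sesn2 a known p53 target, went from 15.0, 32.3 and 13.0 TPM to 27.1, 44.7 and 24.4 TPM in the D/F mice and from 16.7, 14.8 and 19.4 TPM to 21.7, 20.6 and 27.9 TPM in the T/F mice. Replicate 2 was the highest D/F mouse in both treatments, with a DMSO level above the CCS1477 level of the other D/F mice. The log2 changes of 0.71 (SE 0.39, adjusted p = 0.275) in the D/F mice and 0.44 (SE 0.15, adjusted p = 0.0581) in the T/F mice missed the threshold in the main fit, with unpaired mice. In the T/F mice Sesn1 passed with a filter at 5 TPM (adjusted p = 0.0461) and without T/F replicate 3 (adjusted p = 0.0445). With the mouse as a block Sesn1 passed in both, at adjusted p = 0.0172 and 0.0067, but the D/F call was lost without replicate 1 (adjusted p = 0.0834) or 3 (adjusted p = 0.0982). Without D/F replicate 2, Sesn1 passed with unpaired mice also (log2 change 0.84, adjusted p = 0.0245).

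Summed over the 3 sestrins, the level was 43.7 ± 9.36 TPM in D/F DMSO and 96.1 ± 15.6 TPM in D/F CCS1477, and 39.4 ± 1.62 and 76.0 ± 4.37 TPM in the T/F mice (SD, n = 3). The sum holds Sesn3, whose rise with CCS1477 chose the set, so the change of the sum and of its make-up is a description with no test. Sesn3 made up 16.3 ± 4.72% of the sum in DMSO and 39.9 ± 4.09% in CCS1477 in D/F AML, and 15.2 ± 1.87% and 36.4 ± 1.04% in T/F AML. The shares of Sesn1 and Sesn2 were lower by mean in CCS1477 than in DMSO in both genotypes, though the TPM of each was higher in every mouse.

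**Figure D2:**
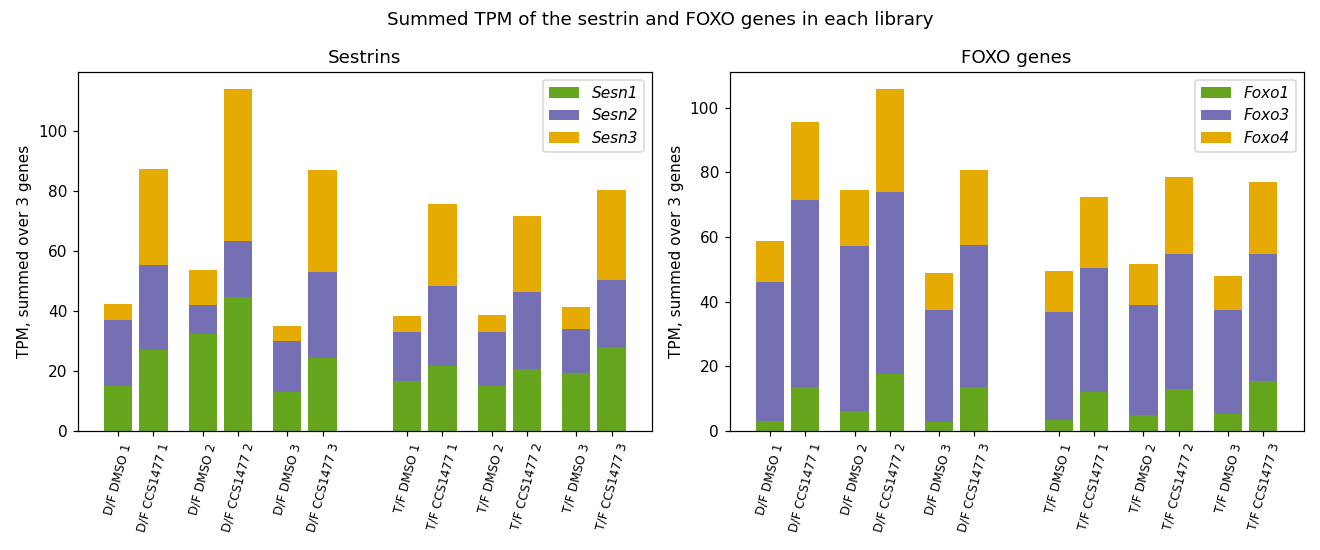
Summed TPM of the 3 sestrins (left) and the 3 FOXO genes (right) in each of the 12 libraries, labelled by genotype, treatment and replicate number; bars start at 0 and their colours are the 3 genes. The sestrin sums lie between 35.1 and 53.6 TPM in DMSO and between 71.8 and 114 TPM in CCS1477. There the segment of Sesn3, whose rise chose the set, is larger in every mouse.

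Foxo1 rose in both genotypes, from the lowest mean level of the 10 genes. It was at 3.11, 5.99 and 2.82 TPM in D/F DMSO and at 13.5, 17.5 and 13.5 TPM in D/F CCS1477, and at 3.48, 4.75 and 5.33 TPM in T/F DMSO and at 12.2, 13.1 and 15.5 TPM in T/F CCS1477. The treated libraries all lay above the DMSO libraries, by a within-mouse ratio of 4.00 ± 0.97 in the D/F mice and 3.05 ± 0.39 in the T/F mice (SD, n = 3 mice). The log2 change was 1.71 (SE 0.27, adjusted p = 0.0162) in the D/F mice and 1.41 (SE 0.16, adjusted p = 0.0015) in the T/F mice. The D/F call did not hold without replicate 1 (adjusted p = 0.178) or without replicate 3 (adjusted p = 0.213), fits in which no gene of the table passed, although the log2 change stayed at 1.66 and 1.61.

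Foxo4, the X-linked member of the family, rose by nearly the same factor in every mouse. Its levels were 12.6, 17.2 and 11.4 TPM in D/F DMSO, 23.9, 31.8 and 23.0 TPM in D/F CCS1477, 12.6, 12.7 and 10.6 TPM in T/F DMSO and 22.1, 23.8 and 22.2 TPM in T/F CCS1477. The within-mouse ratio ran from 1.75 to 2.09 over the 6 mice, and treated and DMSO libraries did not overlap in either genotype. The log2 change was 0.89 (SE 0.21, adjusted p = 0.0466) in the D/F mice and 0.87 (SE 0.09, adjusted p = 0.0011) in the T/F mice. The D/F value was close to the threshold, with adjusted p = 0.296 without replicate 1, 0.310 without replicate 3 and 0.0558 with a pseudocount of 0.1 TPM, and 0.0065 with the mouse as a block (0.0591 without replicate 3).

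Foxo3 was the most abundant FOXO gene and had the smallest change of the 10 genes. It went from 42.8, 51.3 and 34.5 TPM to 58.1, 56.5 and 44.2 TPM in the D/F mice and from 33.2, 34.1 and 32.0 TPM to 38.2, 41.7 and 39.2 TPM in the T/F mice, so it was higher in each mouse but by a ratio of only 1.10 to 1.36. The D/F log2 change of 0.31 (SE 0.21) had an adjusted p of 0.365. In T/F AML the log2 change of 0.25 (SE 0.06) passed at adjusted p = 0.0235, and the adjusted p lay between 0.101 and 0.124 without any 1 of the T/F replicates and at 0.0793 when libraries were rescaled to the same median.

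The FOXO sum was 60.6 ± 13.0 TPM in D/F DMSO and 93.9 ± 12.6 TPM in D/F CCS1477, and 49.6 ± 1.78 and 76.0 ± 3.19 TPM in the T/F mice (SD, n = 3). Foxo1 went from 6.38 ± 1.45% to 15.8 ± 1.43% of the sum in D/F AML and from 9.12 ± 2.04% to 17.9 ± 2.00% in T/F AML. Foxo3 still made up most of it in CCS1477, with 56.4 ± 3.94% in the D/F mice and 52.2 ± 1.14% in the T/F mice, below its 70.9 ± 2.11% and 66.8 ± 0.61% in DMSO.

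Txnip, an arrestin-domain protein that binds thioredoxin and limits glucose uptake, had the largest difference in TPM. It was at 131, 169 and 57.8 TPM in D/F DMSO and at 594, 611 and 210 TPM in D/F CCS1477, and at 58.3, 88.1 and 75.7 TPM in T/F DMSO and at 219, 300 and 281 TPM in T/F CCS1477. Replicate 3 was the lowest D/F mouse in both treatments, and even there the treated level was above every DMSO library. The within-mouse ratio was 3.92 ± 0.52 in the D/F mice and 3.63 ± 0.19 in the T/F mice (SD, n = 3 mice). The log2 change of 1.84 (SE 0.19) in the T/F mice passed at adjusted p = 0.0012. The log2 change of 1.95 (SE 0.55) in D/F missed the threshold in the main fit, with unpaired mice (adjusted p = 0.0695). It passed in a shared fit of all 4 groups, also unpaired (adjusted p = 0.0090). Under the mouse block it passed as well (adjusted p = 0.0043, and 0.0514 without replicate 3). An antisense gene that overlaps Txnip, Gm15441, was at 0.544 to 4.99 TPM, and whether the counting used the strand is not given in the sources used here.

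Irs2, the adaptor that links insulin and IGF receptors to PI3K and is itself a FOXO target in liver, was higher with CCS1477 by factors that varied between mice. It went from 9.37, 10.8 and 8.41 TPM to 16.9, 28.4 and 14.7 TPM in the D/F mice and from 10.2, 11.1 and 7.47 TPM to 12.5, 11.8 and 12.6 TPM in the T/F mice. The ratio was above 1 in all 6 mice, at 1.74 to 2.62 in the D/F mice and 1.07 to 1.69 in the T/F mice. The log2 change was 0.94 (SE 0.26, adjusted p = 0.0662) in D/F. It passed with the mouse as a block (adjusted p = 0.0151, and 0.0586 and 0.0688 without replicate 1 and 3). With unpaired mice it passed without replicate 2 (adjusted p = 0.0286), after rescaling to the same median (adjusted p = 0.0408) and in a shared fit of all 4 groups (adjusted p = 0.0090). In T/F AML the log2 change of 0.35 (SE 0.14) did not pass in either fit (adjusted p = 0.0970, and 0.102 with the block).

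Ddit4 (REDD1), a stress-induced inhibitor that acts on mTORC1 through the TSC complex, was higher with CCS1477 in all 6 mice and spread widely among the D/F mice. It was at 77.4, 22.3 and 39.2 TPM in D/F DMSO and at 177, 31.9 and 75.2 TPM in D/F CCS1477, so replicate 1 held the highest and replicate 2 the lowest level in both. The T/F mice had 24.2, 32.3 and 25.8 TPM in DMSO and 32.3, 40.9 and 36.4 TPM in CCS1477. The ratio within a mouse was 1.43 to 2.29 in the D/F mice and 1.27 to 1.41 in the T/F mice. In the main fit, with unpaired mice, Ddit4 did not pass for D/F (log2 change 0.87, SE 0.69, adjusted p = 0.444) or T/F AML (0.41, SE 0.14, adjusted p = 0.0591). With a filter at 5 TPM it passed in T/F AML (adjusted p = 0.0468). With the mouse as a block it passed in both, at adjusted p = 0.0206 and 0.0080, but the D/F call was lost without replicate 1 (adjusted p = 0.0772) or 3 (adjusted p = 0.106).

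Pik3ip1, a membrane protein that binds and inhibits the catalytic subunit of PI3K, was the only one of the 10 genes that was lower with CCS1477, and it was lower in all 6 mice. It went from 31.9, 61.7 and 31.5 TPM to 15.7, 43.7 and 7.55 TPM in the D/F mice and from 32.4, 30.3 and 34.7 TPM to 10.5, 10.96 and 15.9 TPM in the T/F mice. The T/F groups did not overlap, and the D/F groups overlapped only because the treated cells of replicate 2 stayed above the DMSO cells of the other D/F mice. Pik3ip1 fell in T/F AML (log2 change -1.33, SE 0.16, adjusted p = 0.0020, and 0.0752 in a shared fit of all 4 groups). In D/F AML the log2 change was -1.13 (SE 0.61, adjusted p = 0.268), with adjusted p = 0.0473 with the mouse as a block and, with the block and without replicate 2, a log2 change of -1.45 (adjusted p = 0.0390). The same blocked fit did not pass without replicate 1 (-1.21, adjusted p = 0.128) or without replicate 3 (-0.73, adjusted p = 0.0982). In DMSO the cells of replicate 2 also had the highest megakaryocyte (242 against 47.8 and 64.8 TPM), mast cell or basophil (263 against 126 and 119 TPM), erythroid (54.9 against 25.6 and 26.5 TPM), T cell and B cell sums of the D/F mice, and the part of these in the Pik3ip1 level was not tested. Gm12592, which overlaps Pik3ip1 on the opposite strand, was at 5.64 to 14.5 TPM.

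**Figure D3:**
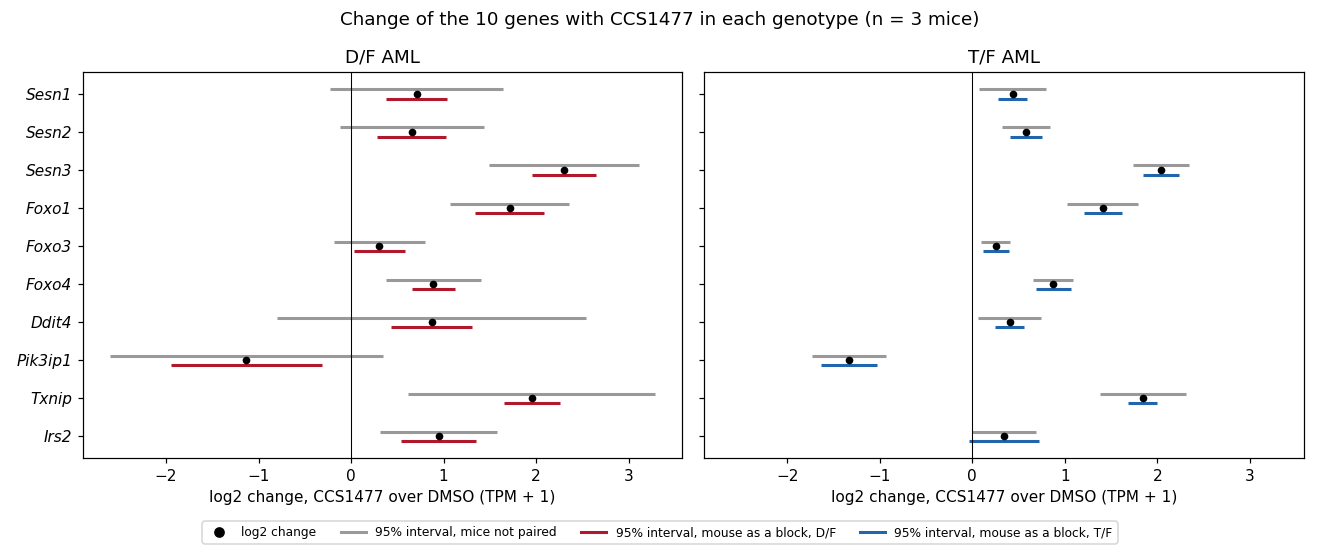
Log2 change of the 10 genes with CCS1477 (horizontal axis, log2 of TPM + 1) in D/F and T/F AML, n = 3 mice each; points are the estimates, grey bars the 95% intervals with unpaired mice and coloured bars those with the mouse as a block. In D/F AML the coloured bars are shorter than the grey bars for all 10 genes, and those of Sesn3, Foxo1 and Txnip lie farthest to the right in both genotypes.

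Counted together, 2 of the 9 genes other than Sesn3 passed in D/F AML with unpaired mice, Foxo1 and Foxo4, both higher, where 11.6% of all genes tested passed in either direction. With the mouse as a block 8 of 9 passed, all but Foxo3, beside 39.3% of all genes. That count was 3 without replicate 1, 7 without replicate 2 and 0 without replicate 3, a fit in which no gene of the table passed. In T/F AML 6 of 9 passed, beside 43.4% of all genes (Foxo1, Foxo3, Foxo4, Sesn2 and Txnip higher and Pik3ip1 lower), and 8 of 9 with the block, beside 54.1%. Over both genotypes together 7 of 9 passed, beside 45.3% of all genes, with Sesn1 (adjusted p = 0.0514) and Ddit4 (adjusted p = 0.197) short of the threshold and Foxo3 close to it (adjusted p = 0.0427, and 0.0912 to 0.118 without D/F replicate 1 or any 1 of the T/F replicates), and all 9 passed with the block, beside 60.3%. By direction alone, 9 of the 10 genes were higher in all 6 mice, as were 31.8% of all genes, and Pik3ip1 was lower in all 6, as were 24.2%. A two-sided exact sign-flip permutation test over the 6 mice gave p = 0.031 for each of the 9 genes tested, the smallest value that it can give.

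The genotypes were compared within each treatment, a contrast that the rule for the set did not use. The levels of Sesn3 did enter the rule through its change with CCS1477. Its values are therefore given as the fit made them, and nothing is read from them. None of the 10 genes passed between D/F and T/F AML in DMSO or in CCS1477 (limma), where 0.0328% and 0.0329% of all genes passed. At an unadjusted p under 0.05 there were 0 of 10 in DMSO and 2 of 10 in CCS1477, Foxo3 and Irs2, beside 6.15% and 10.8% of all genes. Foxo3 was higher in every D/F than in every T/F library in DMSO (log2 difference 0.34, SE 0.17, adjusted p = 0.857) and in CCS1477 (0.40, SE 0.14, adjusted p = 0.388). In CCS1477, Irs2 (0.60, SE 0.24, adjusted p = 0.445) and Sesn3 (0.44, SE 0.20, adjusted p = 0.484) were also higher in every D/F library. Of all genes, 7.42% in DMSO and 10.7% in CCS1477 were higher in D/F without overlap. An exact permutation test of 3 against 3 libraries cannot go below p = 0.1, the value for each of these. Ddit4 had a log2 difference of 1.03 in CCS1477 (SE 0.57, adjusted p = 0.566), which was 0.42 without D/F replicate 1 and 1.64 without D/F replicate 2, with means of 94.9 ± 74.7 TPM in the D/F mice and 36.5 ± 4.29 TPM in the T/F mice (SD, n = 3) that overlapped.

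The response to CCS1477 was also compared between the genotypes, as the log2 change of D/F less that of T/F AML. All 10 differences were above 0, from 0.02 (SE 0.23) for Foxo4 to 0.60 (SE 0.31) for Irs2. For Pik3ip1, lower with CCS1477, a difference above 0 (0.20, SE 0.70) means a smaller decrease in the D/F mice (-1.13 against -1.33). The signs are therefore not a count of larger responses. The changes of Sesn3 chose the set, so its difference is given as the fit made it and nothing is read from it. None of the other 9 genes passed (adjusted p = 0.9999 for each, limma). Of all genes, 46.8% were above 0, and leaving out 1 replicate turned the differences of Foxo3, Foxo4, Sesn2 and Pik3ip1 below 0. No gene of the table passed either, with 659 genes at an unadjusted p under 0.05. Intervals narrowed when the mouse was a block: the difference for Txnip was 0.11 with a 95% interval from -0.19 to 0.41 and for Sesn3 0.26 with an interval from -0.11 to 0.63, whereas those for Irs2 (0.06 to 1.14) and Ddit4 (0.02 to 0.91) lay above 0 with unadjusted p = 0.0346 and 0.0441 and adjusted p = 0.307 and 0.327. For Foxo4 the interval ran from -0.22 to 0.25.

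Other genes of the same routes were counted from lists over both genotypes, where 25.8% of all genes passed as higher and 19.6% as lower with unpaired mice, and 34.5% and 25.9% under the mouse block. Over all genes tested, the median log2 change was 0.07. Each list leaves out the 10 genes themselves, 4 genes are shared between the FOXO target and mTORC1 lists, 2 between the FOXO target and PI3K lists and 1 between the FOXO target and thioredoxin lists. The plot of the named list genes gives their changes in both genotypes.

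Of 44 FOXO target genes tested, 18 rose and 5 fell (27 and 9 with the block), with a median log2 change of 0.41. Without D/F replicate 2 the counts were 23 and 9, and without D/F replicate 3 they were 14 and 3. Klf2, a transcription factor of lymphocyte and endothelial quiescence, rose by 2.51 on the log2 scale (SE 0.43, adjusted p = 0.00067). It went from 9.85 ± 9.41 to 63.7 ± 48.8 TPM in the D/F mice and from 8.35 ± 2.65 to 47.9 ± 9.58 TPM in the T/F mice (SD, n = 3). In the D/F mice alone the adjusted p was 0.0754 with unpaired mice and 0.0098 with the block. Ccng2, an atypical cyclin of arrested cells, rose by 2.00 (SE 0.18), and Trp53inp1, a stress protein linked to autophagy, by 1.63 (SE 0.30). For Trp53inp1 in the D/F mice alone the adjusted p was 0.0954 with unpaired mice and 0.0056 with the block. The falls included other known FOXO targets. The interleukin receptor gene Il7r had a log2 change of -1.80 (SE 0.52, adjusted p = 0.0152, and 0.0605 without D/F replicate 3), from means of 6.93 ± 6.76 TPM in the D/F mice and 6.25 ± 5.67 TPM in the T/F mice (SD, n = 3). Ccnd2, the cyclin D gene that FOXO proteins are known to repress, went from 176 to 59.2 TPM in the D/F mice and from 171 to 63.9 TPM in the T/F mice (log2 change -1.49, SE 0.12).

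Of 42 PI3K, AKT and lipid phosphatase genes tested, 15 rose and 11 fell (18 and 12 with the block), with a median log2 change of 0.11. The phosphatases Inpp4a and Inpp4b, which remove a phosphate from products of PI3K, moved in opposite directions. Inpp4a went from 19.2 ± 3.34 to 82.5 ± 7.75 TPM in the D/F mice and from 23.4 ± 4.37 to 70.8 ± 3.06 TPM in the T/F mice (SD, n = 3; log2 change 1.82, SE 0.13). Inpp4b had a log2 change of -2.03 (SE 0.50, adjusted p = 0.0066), from 29.5 ± 31.2 TPM in D/F DMSO, where the SD exceeded the mean. The adaptor Gab1 and the class II kinase Pik3c2a rose by 0.90 and 0.78 on the log2 scale. The adaptor Pik3ap1 (log2 change -1.50, SE 0.10) and the receptor Igf1r (log2 change -0.94, SE 0.11) fell.

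Of 58 mTORC1 and amino acid sensing genes tested, 16 rose and 9 fell (24 and 13 with the block, 23 and 14 without D/F replicate 2), with a median log2 change of 0.11. The rises were led by Castor2, of the arginine sensor family (log2 change 1.70, SE 0.30), by the autophagy kinase Ulk1, which is also on the FOXO target list (1.21, SE 0.17), and by the Rag GTPase gene Rraga (0.64, SE 0.08). The named falls were smaller and close to each other: the log2 change was -0.58 for Prr5, a subunit of mTORC2, -0.56 for the translation initiation factor Eif4b and -0.56 for Telo2, which helps to assemble mTOR complexes. None of the 9 genes that fell did so by more than 2-fold.

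Of 18 thioredoxin and arrestin-domain genes tested, 8 rose and 2 fell (8 and 4 with the block, and also without D/F replicate 2), with a median log2 change of 0.19. Arrdc3, an arrestin-domain relative of Txnip, went from 18.2 ± 0.36 to 58.9 ± 7.67 TPM in the D/F mice and from 12.9 ± 0.47 to 31.9 ± 6.66 TPM in the T/F mice (SD, n = 3; log2 change 1.43, SE 0.12). The peroxiredoxin Prdx4 and the sulfiredoxin Srxn1, which restores oxidised peroxiredoxins, rose by 1.03 and 0.91 on the log2 scale. The peroxiredoxin Prdx6 (log2 change -0.87, SE 0.07) and the glucose transporter Slc2a3 (log2 change -0.75, SE 0.17) fell.

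Of 16 transcription factors known to act on the 10 genes, 8 rose and 2 fell (8 and 4 with the block, 9 and 4 without D/F replicate 2), with a median log2 change of 0.28. Without any 1 of the other replicates, 6 to 8 rose and 1 fell. Mlxipl (ChREBP), the glucose-responsive factor known to drive Txnip, rose by 1.06 on the log2 scale (SE 0.17) but stayed low, at 6.22 ± 3.00 TPM in D/F CCS1477 and 3.11 ± 0.39 TPM in T/F CCS1477 (SD, n = 3). The hypoxia factor Epas1 rose by 1.46 (SE 0.11) and Tfe3, a factor of lysosome and starvation genes, by 1.04 (SE 0.09). Trp53, which encodes p53, a known inducer of Sesn1 and Sesn2, fell (log2 change -0.65, SE 0.10), from means of 173 to 101 TPM in the D/F mice and of 165 to 114 TPM in the T/F mice. Hif1a, a known inducer of Ddit4, fell by 0.38 on the log2 scale (SE 0.13, adjusted p = 0.0358), a call that was lost after rescaling (adjusted p = 0.0609), without D/F replicate 1 or 3 and without any 1 of the T/F replicates (adjusted p = 0.0736 to 0.109). These are levels of RNA, and the activity of the factors was not measured here.

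**Figure D4:**
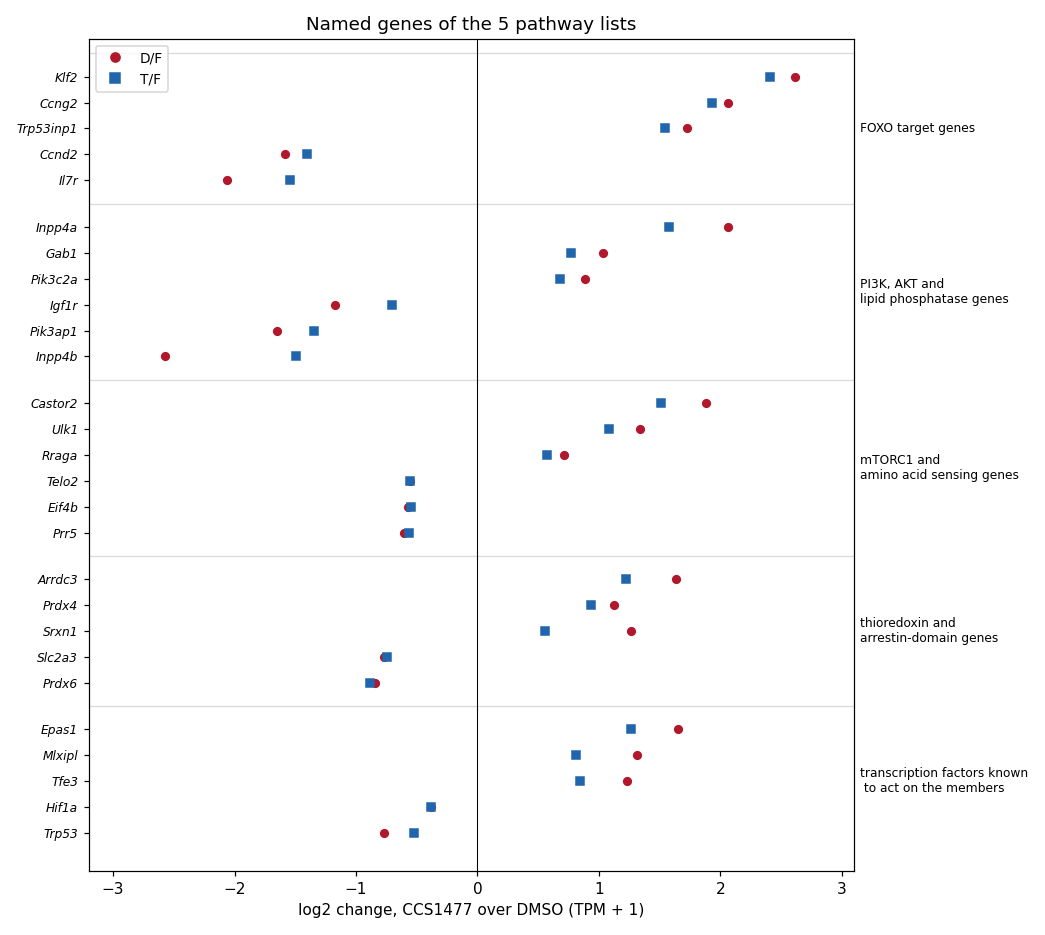
Log2 change with CCS1477 (horizontal axis, log2 of TPM + 1) of the named genes of the 5 lists in D/F (red circles) and T/F (blue squares) AML, each the estimate over 3 mice; error bars are left out. Both genotypes lie on the same side of 0 for every gene shown, which the rule for naming genes requires of each mouse. The values run from Klf2 at 2.61 in D/F and 2.41 in T/F to Inpp4b at -2.57 in D/F and Il7r at -1.54 in T/F.

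The genes whose levels followed Sesn3 most closely over the 12 libraries, on log2(TPM + 1) and among 12390 genes, were Trove2 (Pearson r = 0.996), Prmt2, Trim62, Ndrg3 and Dok4 (r = 0.992). These are given as a description with no p, since the libraries share the treatment and the mice. Trim62 went from means of 2.48 to 14.4 TPM in the D/F mice and of 2.42 to 9.74 TPM in the T/F mice, and Ndrg3, at a higher level, from 30.2 to 53.9 TPM and from 27.4 to 48.2 TPM. Among the other 9 genes, Foxo1 followed Sesn3 most closely (r = 0.981, rank 97), then Foxo4 (r = 0.971, rank 225) and Txnip (r = 0.910, rank 1234). Sesn1 (r = 0.804) and Sesn2 (r = 0.542) were farther from it than these 3 genes were, Ddit4 had r = 0.301 and Pik3ip1 r = -0.531.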

How the data were processed

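RNA-seq of 12 libraries (3 mice, 2 treatments, 2 genotypes) was analysed from the gene-level TPM table that the authors deposited; the submitters' processing notes name kallisto and mm10, and the study's methods AltAnalyze. The labels name both ribosome depletion and a stranded mRNA kit. The table holds 15651 genes, each reaching at least 2.00 TPM in some library, and libraries sum to between 914204 and 931697 TPM. The study's methods state a number of reads per sample. Counts are not used here, so the reads behind each value are unknown and no counting interval is given. Each value rests on 3 mice a group.

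limma 3.58.1 (R 4.3.3) was fitted to log2(TPM + 1), a scale that understates changes of low genes, for genes whose mean reached 1 TPM in a group compared, with empirical Bayes variances and Benjamini-Hochberg adjustment over all genes tested; the script was tested on simulated data. A gene passed, rose or fell at an adjusted p under 0.05. The main fit did not pair mice. Same-numbered libraries come from 1 mouse by the sample records and the deposited column heads (1 head of a supplementary table of the study gives another mouse number for D/F replicate 3), and their deviations from group means correlated at 0.354 to 0.669 against at most 0.141 between different mice, so the fit with the mouse as a block is given where it changes a call. Each group of 3 was centred on its own mean, so a high correlation within a mouse lowers those between mice, and part of this gap is built in. Alternatives were pseudocount, filter, rescaling, a shared fit of 4 groups and leaving out each mouse, and, added after the data were seen, the block together with leaving out each mouse.

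The 10 genes and all lists were chosen with earlier results of these data known. Named list genes are up to 3 rises and 3 falls a list, passing over both genotypes, the same way in all 6 mice, with a mean of 5 TPM in some group; 1 gene that met this rule and 1 cell type marker are not reported here. Of 15651 gene IDs, 15252 were matched to symbols. Promoters are from RefSeq (GRCm38.p6) and gene positions from GENCODE M21. Pearson correlations and exact tests were computed in Python 3.11.15 with scipy 1.17.1.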

Additional observations from a re-analysis of the deposited data

How the results depend on the processing

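The reads behind each value are unknown, and each group held 3 mice. Among the 9 genes tested, 2 passed in D/F AML; 1 passed with a pseudocount of 0.1 TPM, 4 in the shared fit of 4 groups, 8 with the mouse as a replicate block, 0 to 4 without 1 replicate (0 without replicate 1 or 3, 4 without replicate 2) and 0 to 7 with the block and without 1 replicate. Over all genes, 1805 passed in D/F AML, 4940 in the shared fit, 6098 with the block, 0 to 3739 without 1 replicate and 0 to 5015 with the block and without 1 replicate. In T/F AML 6 of the 9 genes and 6620 genes in all passed, against 3 and 3713 in the shared fit (without Sesn2, Foxo3 and Pik3ip1), and 3192 to 5122 genes in all passed without 1 replicate. With a filter at 5 TPM 8 of the 9 genes passed in T/F AML, where Sesn1 and Ddit4 were added. Over both genotypes, Foxo3 did not pass in the shared fit (adjusted p = 0.0547) or without D/F replicate 1 or any 1 of the T/F replicates (adjusted p = 0.0912 to 0.118), and Sesn1 passed with a filter at 5 TPM (adjusted p = 0.0454), after rescaling (0.0305) and without D/F replicate 2 (0.0024). The replicate block changed no calls other than those given beside the results.

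Between the genotypes, 5 genes of the table passed in DMSO, against 9 with a filter at 5 TPM, 20 in the shared fit and 4 to 9 without 1 replicate; in CCS1477 5 passed, against 71 in the shared fit and 2 to 27 without 1 replicate. No direction of CCS1477 against DMSO turned for any of the 10 genes under any alternative run. Log2 differences that turned were all in comparisons of the genotypes that did not pass. Rescaling turned Irs2 in DMSO (-0.028) and Sesn2 in CCS1477 (-0.012). Without 1 replicate, the differences in DMSO ran from -0.15 to 0.11 for Irs2, -0.26 to 0.37 for Sesn1, -0.32 to 0.23 for Sesn2, -0.16 to 0.37 for Sesn3 and -0.031 to 0.44 for Pik3ip1. Those in CCS1477 ran from -0.096 to 0.20 for Sesn2, -0.0051 to 0.21 for Foxo1 and -0.15 to 1.04 for Pik3ip1. The differences of response ran from -0.011 to 0.14 for Foxo3, -0.038 to 0.23 for Sesn2, -0.12 to 0.60 for Pik3ip1 and -0.038 to 0.079 for Foxo4. Leaving out D/F replicate 2 turned most of these. Of the 27 named list genes, 25 stayed past the threshold over both genotypes under all 18 alternatives, the exceptions being Hif1a and Il7r, and none turned. The cause was not tested.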
